A study of Mus musculus with 15 samples.

Results

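The BMP and Id genes Bmp4, Bmp8b, Bmpr1a, Smad6, Id1, Id2, Id3 and Id4 were followed by gene symbol through RNA-seq of mouse embryonic stem cells (mESC) with a doxycycline-inducible knockdown (kd) of Smarcb1. Smarcb1 encodes a component shared by the canonical and polybromo-associated BAF chromatin remodellers and absent from the non-canonical one. The 8 BMP and Id genes were among 55228 listed in every library, and each was found once. All 15 libraries came from the line 81K1, which is 1 clone derived from the mESC line OG2 and carries an anti-Smarcb1 shRNA in the Rosa26 locus under a doxycycline dependent promoter. The cells grew on gelatine in medium with serum and LIF, a cytokine that supports self-renewal. The 5 groups of 3 libraries were untreated cells at 48 h (48 h ctrl), cells given 1 µg doxycycline per ml daily for 48 h (48 h kd) or 72 h (72 h kd), untreated cells at 240 h (240 h ctrl) and cells given doxycycline for 240 h (240 h kd). No control was sampled at 72 h, so 72 h kd was set against 48 h ctrl, and the 48 h and 72 h comparisons share their control libraries. Doxycycline and the knockdown went together in every kd library and cannot be told apart here. The labels do not say whether the 3 libraries of a group came from separate cultures, so p-values measure only the spread between these libraries.

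Bone morphogenetic proteins (BMPs) are secreted ligands that bind paired type I and type II receptors. The receptors phosphorylate the transcription factors Smad1, Smad5 and Smad9, which enter the nucleus with Smad4. Among their best known targets are the Id genes, whose proteins lack a DNA-binding region and hold E proteins and other basic helix-loop-helix (bHLH) factors away from DNA, and the inhibitory SMAD gene Smad6, which closes a feedback loop. In mESC kept with LIF, BMP signals from serum and the Id proteins are known for holding back neural differentiation.

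Each library held between 11074998 and 14515300 reads, and the deposited FPKM values (reads scaled to gene length and library size) divide by the whole gene span, introns included. Smarcb1 was 3.41, 3.46 and 3.93 FPKM in 48 h ctrl, 0.503, 0.820 and 0.618 FPKM in 48 h kd, and 0.541, 0.639 and 0.512 FPKM in 72 h kd. It was 3.31, 3.55 and 3.40 FPKM in 240 h ctrl and 0.721, 0.621 and 0.638 FPKM in 240 h kd, so every kd library lay below every ctrl library and the means were 5.57-fold, 6.39-fold and 5.18-fold lower at 48 h, 72 h and 240 h. All 8 of 8 pluripotency markers stood at 1 FPKM or more in every group, and 0 of 7 primitive endoderm, 0 of 7 mesoderm and 0 of 7 fibroblast markers did. Of 7 trophoblast markers 1 reached that level and of 7 neural markers 3 did. The mitochondrial share of reads ran from 0.507% to 2.53%, highest in 48 h kd replicate 2. That library also stood apart from its group, as the chi-square over genes, divided by its degrees of freedom, was 11.3 and 9.15 against the other 2 replicates and 1.51 between those. 240 h ctrl replicate 3 followed, at 8.89 and 5.02 against 2.23. Among the members, leaving out the first changed the Id3 calls given below and leaving out the second changed no call.

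The members lie on 6 chromosomes, given here with the coordinates of the deposited files (mm10). Bmp4 spans chr14:46383520-46390669 on the minus strand, Bmpr1a chr14:34410734-34503341 on the minus strand, Bmp8b chr4:123105165-123132099 on the plus strand, and Smad6 chr9:63953076-64022059 on the minus strand. Id1 spans chr2:152736251-152737410 (plus), Id2 chr12:25093799-25097140 (minus), Id3 chr4:136143497-136145755 (plus) and Id4 chr13:48261228-48266026 (plus). FPKM was divided by whole spans and the files give no strand, so reads in introns or of overlapping genes may be included. Id1, Id2, Id3 and Smad6 overlap no other listed gene, whereas Bmp4, Bmp8b, Bmpr1a and Id4 share bases with others and their reads cannot be told apart there.

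The sequence before the start site is shown for members whose level moved with the knockdown. RefSeq promoter windows (GRCm38.p6) matched 7 of the 8 members, all but Id1. The 250 bases upstream of the start were searched on both strands for GGCGCC, a GC-rich element bound by BMP-responsive SMADs, for CAGAC, a core SMAD-binding sequence, and for CANNTG, the E-box bound by bHLH factors. These occur in 9.59%, 42.2% and 66.2% of the 32851 windows of the same length. For Bmp4 (chr14:46390670-46390919, minus strand), Smad6 (chr9:64022060-64022309, minus strand) and Id4 (chr13:48260866-48261115, plus strand) the whole upstream window follows, 5′ to 3′, with GGCGCC and CAGAC in capitals.
Bmp4: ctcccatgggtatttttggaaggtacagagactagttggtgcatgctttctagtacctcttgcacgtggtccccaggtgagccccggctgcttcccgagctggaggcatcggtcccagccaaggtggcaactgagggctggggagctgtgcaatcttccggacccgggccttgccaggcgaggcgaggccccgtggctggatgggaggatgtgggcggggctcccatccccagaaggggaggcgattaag
Smad6: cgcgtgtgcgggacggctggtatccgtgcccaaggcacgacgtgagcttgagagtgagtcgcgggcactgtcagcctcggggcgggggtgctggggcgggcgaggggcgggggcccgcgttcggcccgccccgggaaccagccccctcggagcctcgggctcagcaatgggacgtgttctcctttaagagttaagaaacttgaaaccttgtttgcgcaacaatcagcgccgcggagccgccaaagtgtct
Id4: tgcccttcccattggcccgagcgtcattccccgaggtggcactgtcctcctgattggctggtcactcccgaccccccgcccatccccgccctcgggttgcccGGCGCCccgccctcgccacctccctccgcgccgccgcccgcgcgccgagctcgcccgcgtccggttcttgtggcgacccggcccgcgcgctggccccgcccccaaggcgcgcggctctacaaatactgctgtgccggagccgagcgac

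The upstream windows of Id2 and Id3 run into annotated exons of longer transcripts, so only 30 bases around each match are shown. They lie at chr12:25096306-25096335 (minus strand) for Id2 and at chr4:136143643-136143672 and chr4:136143742-136143771 (plus strand) for Id3.
Id2: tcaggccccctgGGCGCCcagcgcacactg
Id3 first match: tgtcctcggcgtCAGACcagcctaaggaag
Id3 second match: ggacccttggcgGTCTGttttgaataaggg
GGCGCC was thus found in Id2, Id4 and also Bmpr1a, and CAGAC (or GTCTG, its reverse complement) in Id3 and Bmp8b. Bmp4 held 3 CANNTG sequences, Id2 and Bmp8b 1 each, and Smad6 held 0 of any of the 3 motifs. GC content of the 7 windows was 62.8% to 78.8%, against a median of 52.4% over all windows.

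In untreated cells at 48 h, Id1 was the highest of the 8 genes. Because introns inflate the span of long genes, levels between genes were compared per exonic kilobase, as reads per exonic kilobase scaled to library size in the same way as FPKM (mean ± SD, n = 3). Reads in introns or from overlapping genes may still be included. Id1 stood at 50.3 ± 1.85, Bmp4 at 18.4 ± 1.36 and Bmpr1a at 16.6 ± 0.355. Then came Bmp8b at 10.4 ± 1.02, Id2 at 9.72 ± 1.14, Id3 at 8.62 ± 0.655, Smad6 at 2.12 ± 0.202 and Id4 at 1.18 ± 0.126. The libraries of Bmp4 and Bmpr1a overlapped in this order (lowest Bmp4 value 16.9, highest Bmpr1a value 17.0), as did those of Bmp8b and Id2 and those of Id2 and Id3, and the other neighbours were separate.

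**Figure D1:**
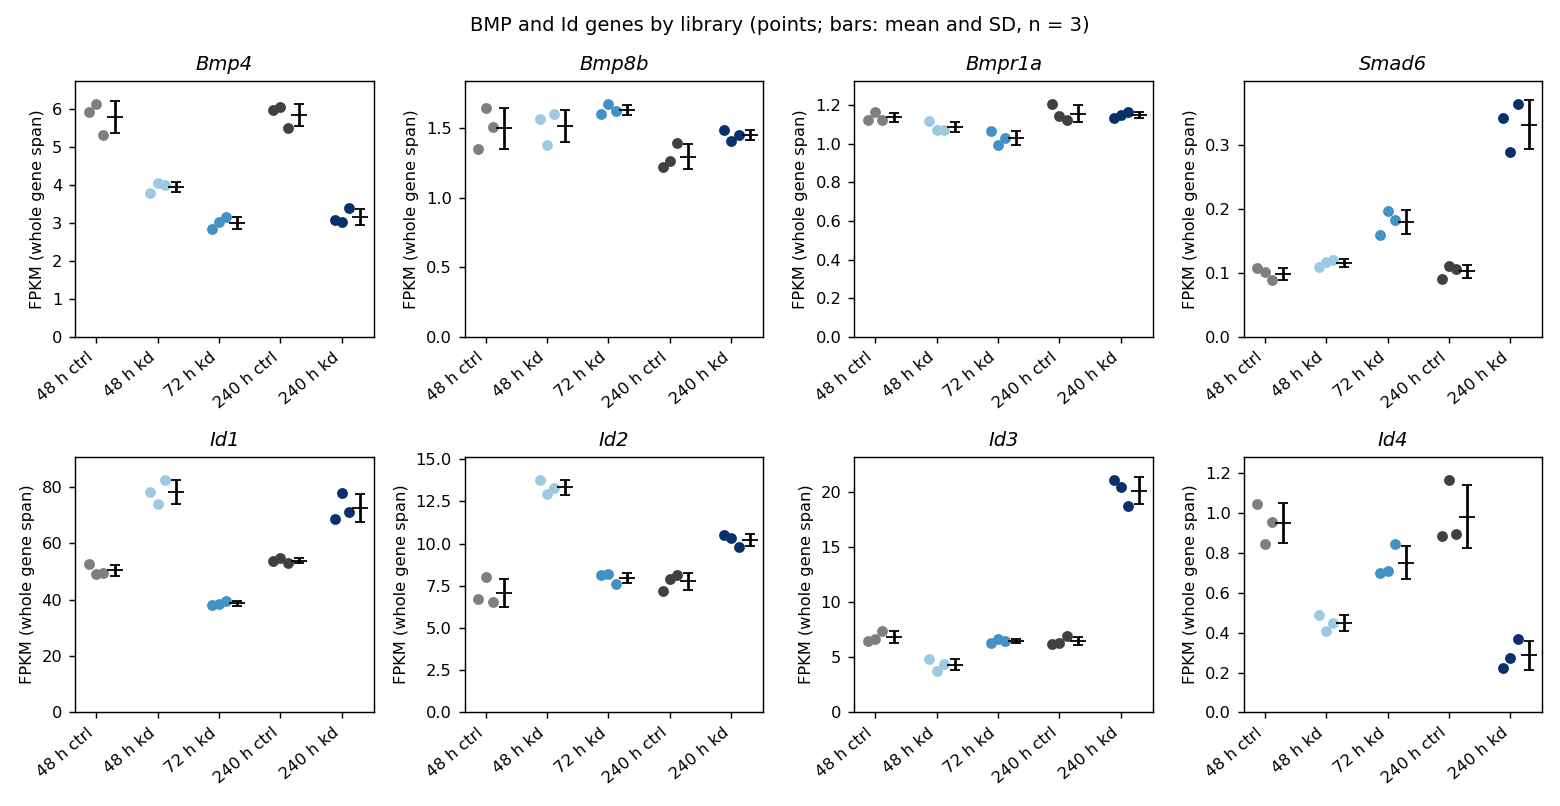
FPKM over the whole gene span (linear axis from 0) of the 8 genes in the 15 libraries; points are libraries and bars the group mean and SD (n = 3). Bmp4 lay between 2.83 and 4.04 in all kd libraries and between 5.31 and 6.13 in all ctrl libraries, and Id3 reached 18.7 to 21.1 only in the 240 h kd libraries.

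A gene was called higher or lower where limma gave an adjusted p under 0.05 and an absolute log2 fold change over 0.58 on the log2(FPKM + 0.01) scale. At 48 h, 4 of the 8 genes were called, with Id1 and Id2 higher and Id3 and Id4 lower, beside 7.89% (3.59% higher, 4.3% lower) among 16108 tested genes. At 72 h, Smad6 was called higher and Bmp4 lower, 2 of the 8, against 20.2% of 16146 genes (11.4% higher and 8.86% lower, a majority that turns with median centring), a share of the members close to the background. At 240 h, Smad6 and Id3 were called higher and Bmp4 and Id4 lower, 4 of the 8, against 15.6% of 16633 genes (8.37% higher and 7.23% lower, a majority that turns with quantile normalization). Between 240 h ctrl and 48 h ctrl, limma called 0 of the 8 and limma voom on the recovered reads also 0, and 0 had an unadjusted p under 0.05, against 0.623% of 16215 genes called. These are RNA levels of whole cultures, in which fewer cells expressing a gene and less RNA per cell cannot be told apart.

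**Figure D2:**
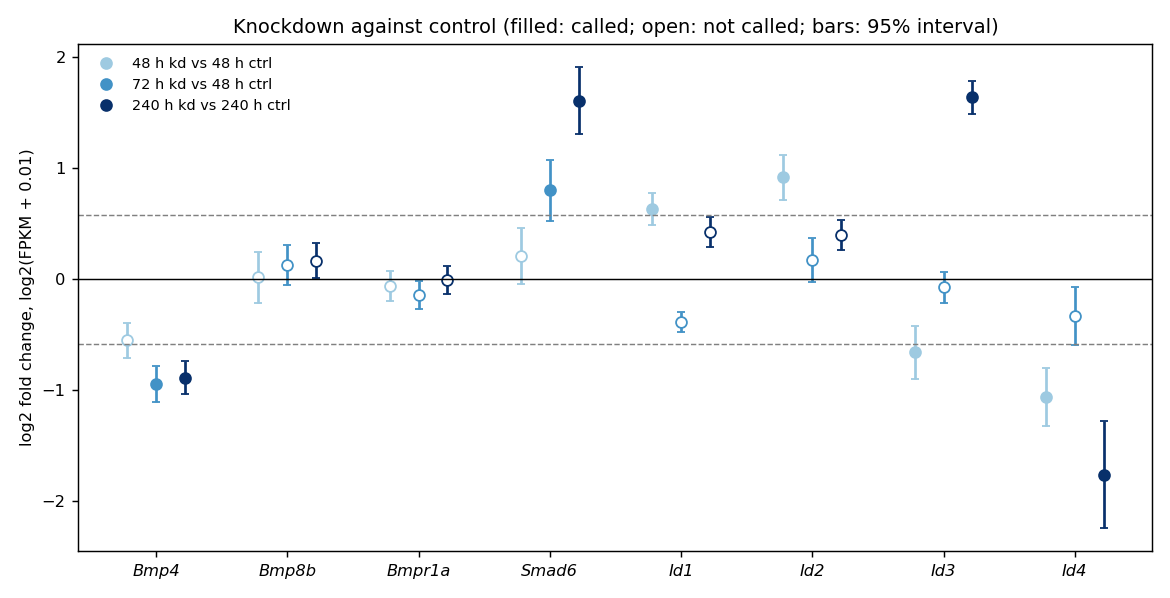
Log2 fold change, log2(FPKM + 0.01), of each gene in the 3 knockdown comparisons, with 95% limma intervals; filled points were called, open points were not, and dashed lines mark 0.58 in both directions. Id3 lay at -0.66 at 48 h and 1.63 at 240 h, and Bmp4 lay below 0 in all 3 comparisons.

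Bmp4 RNA fell under prolonged knockdown. Bmp4 encodes a BMP ligand that drives mesoderm and primordial germ cell formation in the embryo. It was 5.93, 6.13 and 5.31 FPKM in 48 h ctrl, against 3.80, 4.04 and 4.003 FPKM in 48 h kd and 2.83, 3.03 and 3.15 FPKM in 72 h kd. At 240 h it was 5.97, 6.06 and 5.51 FPKM in ctrl and 3.07, 3.02 and 3.40 FPKM in kd. Every kd library was below every ctrl library of either time. The log2 fold change was -0.94 ± 0.07 (SE) at 72 h (limma adjusted p = 9.15e-05) and -0.89 ± 0.06 at 240 h (limma adjusted p = 0.000156), that is 1.93-fold and 1.85-fold lower means.

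At 48 h the Bmp4 log2 fold change was -0.55 ± 0.07 (SE; limma adjusted p = 0.00305), short of 0.58, so it was not called. Without 48 h ctrl replicate 3 it was -0.61 and called, and with values rescaled to TPM it was -0.59 and called. The short overlapping gene Gm15217 had 6 to 22 reads per library, against 259 to 582 for Bmp4, and was also called lower at 48 h (log2 fold change -0.88) and at 72 h (-1.52). At 240 h its reads were 14 to 15 in ctrl and 8 to 15 in kd. The other overlapping gene, Gm15222, had 3 to 17 reads per library, too few to be tested against knockdown, namely 7 to 8 for 48 h ctrl, 6 to 9 for 48 h kd and 3 to 7 for 72 h kd, then 8 to 17 for 240 h ctrl and 4 to 8 for 240 h kd.

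Bmp8b, a second ligand, known from germ cell induction, was not called in any comparison. It was 1.35, 1.64 and 1.51 FPKM in 48 h ctrl, 1.56, 1.38 and 1.60 in 48 h kd, and 1.60, 1.67 and 1.62 in 72 h kd. In the 240 h groups it was 1.22, 1.27 and 1.39 in ctrl and 1.48, 1.41 and 1.45 in kd, where the groups did not overlap. The log2 fold change at 240 h was 0.16 ± 0.07 (SE), with a 95% interval of 0.01 to 0.32 and a limma adjusted p of 0.0893.

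The Bmp8b values cannot be read as Bmp8b RNA alone. Bmp8b overlaps Ppie, a gene on the opposite strand that encodes a spliceosome-associated isomerase, over 4985 bases (chr4:123127115-123132099) that hold the last exons of Ppie. Bmp8b had 409 to 580 reads per library and Ppie 576 to 749. Over the 15 libraries their log2(FPKM + 0.01) levels had a Pearson r of 0.817, given as a description only, since both genes may count the same reads.

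**Figure D3:**
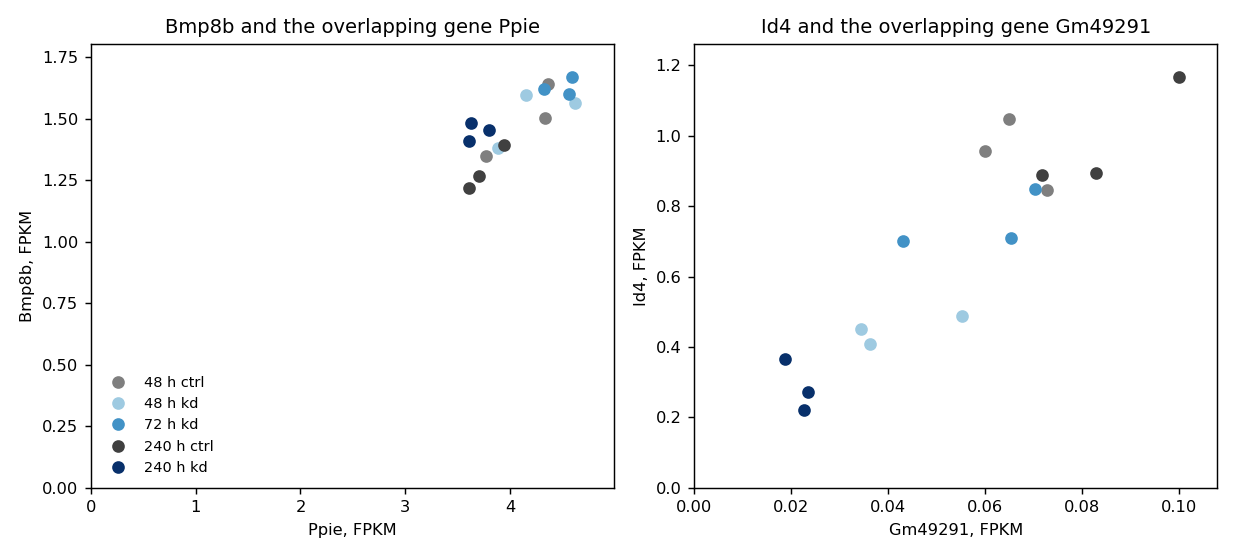
FPKM of Bmp8b against Ppie (left) and of Id4 against Gm49291 (right), each pair overlapping on the genome, on linear axes from 0 with 1 point per library coloured by group. Ppie lay between 3.61 and 4.62 FPKM, and Gm49291 between 0.0187 and 0.10003 FPKM.

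Bmpr1a, the type I receptor through which Bmp4 signals in mESC, was not called in any comparison. It was 1.12, 1.17 and 1.12 FPKM in 48 h ctrl, 1.12, 1.07 and 1.07 in 48 h kd and 1.07, 0.992 and 1.03 in 72 h kd. Its 240 h values were 1.21, 1.14 and 1.12 in ctrl and 1.13, 1.15 and 1.17 in kd. The 48 h kd and 72 h kd libraries did not overlap 48 h ctrl, whereas the 240 h groups overlapped. The log2 fold change was -0.06 at 48 h (95% interval -0.20 to 0.07), -0.14 at 72 h (-0.27 to -0.02; limma adjusted p = 0.0562) and -0.01 at 240 h (-0.14 to 0.12). With 1102 to 1545 reads per library, Bmpr1a had the most reads of the 8 genes.

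Smad6, which encodes the inhibitory SMAD that blocks BMP receptor signalling, rose at 72 h and at 240 h. It was 0.107, 0.101 and 0.0883 FPKM in 48 h ctrl, 0.108, 0.117 and 0.120 in 48 h kd and 0.159, 0.196 and 0.182 in 72 h kd. The 240 h values were 0.0897, 0.111 and 0.105 in ctrl and 0.342, 0.289 and 0.363 in kd. These low FPKM values rest on 69 to 101 reads per ctrl library, 140 to 167 reads at 72 h kd and 289 to 341 reads at 240 h kd, since the gene spans 68984 bases. The 72 h kd and 240 h kd libraries all stood above every ctrl library.

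The Smad6 log2 fold change was 0.21 ± 0.10 (SE) at 48 h (limma adjusted p = 0.206), 0.80 ± 0.11 at 72 h (limma adjusted p = 0.00140) and 1.61 ± 0.13 at 240 h (limma adjusted p = 0.000219). The means were 1.82-fold higher at 72 h and 3.25-fold higher at 240 h, a ratio that the added 0.01 FPKM understates on the log2 scale. With 0.1 FPKM added, the 72 h value was 0.49 and not called, and with 1 FPKM added the 72 h and 240 h values were 0.10 and 0.27, neither of them called.

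Id1, the most abundant Id gene, rose at 48 h. It was 52.5, 49.1 and 49.4 FPKM in 48 h ctrl and 78.2, 73.7 and 82.4 FPKM in 48 h kd, and the groups did not overlap. At 72 h kd it was 38.0, 38.4 and 39.4 FPKM, below every other library. Id1 at 240 h was 53.6, 54.7 and 53.1 FPKM in ctrl and 68.4, 77.9 and 70.8 FPKM in kd, again without overlap.

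The Id1 log2 fold change was 0.63 ± 0.06 (SE) at 48 h (limma adjusted p = 0.00152), a mean 1.55-fold higher. At 72 h it was -0.38 ± 0.04 (limma adjusted p = 0.000289) and at 240 h 0.43 ± 0.06 (limma adjusted p = 0.00181), both under the 0.58 threshold.

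Id2, which is known as an inhibitor of E proteins in lymphoid and neural cells, also rose at 48 h. It was 6.70, 8.04 and 6.53 FPKM in 48 h ctrl and 13.8, 12.9 and 13.3 FPKM in 48 h kd. At 72 h kd it was 8.11, 8.19 and 7.59 FPKM, which overlapped 48 h ctrl, and at 240 h it was 7.19, 7.92 and 8.16 FPKM in ctrl and 10.5, 10.3 and 9.82 FPKM in kd. The 48 h kd libraries were the highest of all 15. The log2 fold change was 0.92 ± 0.08 (SE) at 48 h (limma adjusted p = 0.00144), 0.17 ± 0.08 at 72 h (limma adjusted p = 0.119) and 0.40 ± 0.06 at 240 h (limma adjusted p = 0.00247), the last below the fold threshold.

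Id3, which is known to overlap in function with Id1, moved in opposite directions early and late. It was 6.45, 6.63 and 7.43 FPKM in 48 h ctrl, 4.80, 3.77 and 4.44 FPKM in 48 h kd and 6.33, 6.63 and 6.50 FPKM in 72 h kd. At 240 h it was 6.23, 6.25 and 6.92 FPKM in ctrl and 21.1, 20.5 and 18.7 FPKM in kd. The 48 h kd libraries were the lowest of the 15 and the 240 h kd libraries the highest, while 72 h kd overlapped its control.

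The Id3 log2 fold change was -0.66 ± 0.10 (SE) at 48 h (limma adjusted p = 0.00691), -0.07 ± 0.06 at 72 h (limma adjusted p = 0.313) and 1.63 ± 0.06 at 240 h (limma adjusted p = 1.96e-05). The mean was 1.58-fold lower at 48 h and 3.11-fold higher at 240 h. The 48 h call was lost without 48 h kd replicate 2, where the value was -0.56, and with 1 FPKM added, where it was also -0.56. That replicate is the one that stood apart from its group and had the highest mitochondrial share.

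Id4, known from neural stem cells and spermatogonia and the least abundant Id gene here, fell at 48 h and at 240 h. It was 1.05, 0.846 and 0.957 FPKM in 48 h ctrl, 0.488, 0.409 and 0.452 FPKM in 48 h kd and 0.700, 0.708 and 0.847 FPKM in 72 h kd. At 240 h it was 0.888, 1.17 and 0.895 FPKM in ctrl and 0.221, 0.273 and 0.367 FPKM in kd. The 48 h kd and 240 h kd libraries were below every ctrl library, and 72 h kd overlapped 48 h ctrl by a single library. Id4 rested on few reads, 45 to 69 per ctrl library, 23 to 27 at 48 h kd and 14 to 24 at 240 h kd.

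The Id4 log2 fold change was -1.06 ± 0.11 (SE) at 48 h (limma adjusted p = 0.00190), -0.33 ± 0.11 at 72 h (limma adjusted p = 0.0384, below the fold threshold) and -1.76 ± 0.20 at 240 h (limma adjusted p = 0.000965). The means were 2.11-fold lower at 48 h and 3.43-fold lower at 240 h. With 1 FPKM added, the 48 h value was -0.43 and not called. The overlapping transcripts A330033J07Rik and Gm49291 had 10 to 37 and 6 to 29 reads per library and were also called lower at 240 h (log2 fold changes -0.65 and -1.58, with means 3.09-fold and 3.94-fold lower, the first shrunk by the added 0.01 FPKM), and reads of the 3 genes cannot be told apart where they overlap.

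The early and late effects were compared in 1 model over the 48 h and 240 h libraries, which share no control. The 240 h effect minus the 48 h effect was called for 2 of the 8 genes, both higher, against 9.87% of 16403 genes (5.25% higher and 4.62% lower, a majority that turns with a minimum of 50 reads or of 0.5 FPKM). It was 2.29 ± 0.13 (SE) on the log2 scale for Id3 (limma adjusted p = 2.02e-06) and 1.40 ± 0.16 for Smad6 (limma adjusted p = 0.000214). For Id2 it was -0.52 ± 0.11 (limma adjusted p = 0.00774) and for Bmp4 -0.34 ± 0.09 (limma adjusted p = 0.0304), both under the fold threshold. For Id4 it was -0.70 ± 0.24 (limma adjusted p = 0.0743), for Id1 -0.21 (95% interval -0.39 to -0.03), for Bmp8b 0.15 (-0.11 to 0.41) and for Bmpr1a 0.06 (-0.09 to 0.20). Without 48 h ctrl replicate 2 the Id2 value was -0.61 and called, and without 240 h kd replicate 3 the Id4 value was -0.88 and called.

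**Figure D4:**
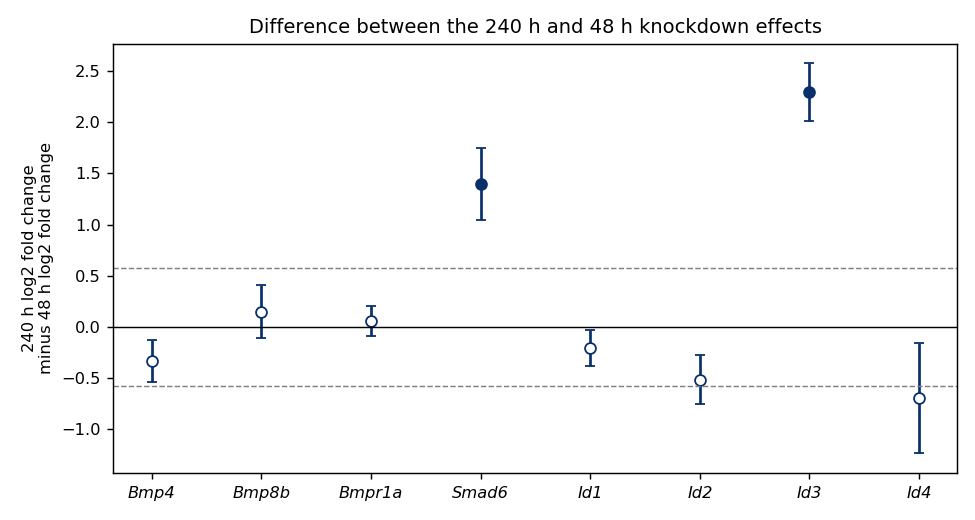
Difference between the 240 h and 48 h knockdown log2 fold changes of each gene with its 95% limma interval (12 libraries); filled points were called and dashed lines mark 0.58 in both directions. Id3 at 2.29 and Smad6 at 1.40 lay above the upper line, and the other 6 genes were not called.

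Levels of cell type markers also differed between the groups. The summed FPKM of the 7 trophoblast markers was 12.5 to 13.01 in 240 h kd against 7.14 to 7.82 in its control. Tfap2c had a mean of 1144 reads over the 15 libraries and the other markers of the list at most 12.5, so the sum mostly follows Tfap2c. At 240 h 4 of 4 tested markers were called higher (Cdx2, Tfap2c, Krt7 and Hand1), beside 8.37% of all genes tested. Tpbpa had 0 reads in every library. Between the control groups only 1 marker of the list was tested, so Cdx2, Krt7 and Hand1 entered the 240 h test through the kd libraries. Their higher calls were thus favoured by the read minimum and lend no support. At the earlier times Tfap2c was the only one of the 7 with enough reads to be tested, and it was called lower at 48 h (-0.62) and higher at 72 h (0.92). The sum of the 7, 8.49 to 9.33 in 48 h ctrl, was 5.57 to 6.03 in 48 h kd and 16.4 to 17.1 in 72 h kd. The summed FPKM of the 7 neural markers was 34.4 to 35.8 in 240 h kd against 20.5 to 22.4 in its control, and Sox1 and Nes were called higher there. In 48 h kd, where Id1 and Id2 were called higher, the neural sum was 26.2 to 30.4 against 20.9 to 22.3 in 48 h ctrl, with Sox1 called higher and Pax6 and Map2 lower. In 72 h kd, where Smad6 was called higher and Bmp4 lower, it was 24.2 to 26.3. There 4 of 5 tested neural markers were called (Sox1 higher, Pax6, Tubb3 and Map2 lower), beside 20.2% of all genes tested. Sox1 overlaps Sox1ot, which had a similar number of reads, and Tubb3 overlaps the far more abundant Gm20388. Reads of these overlapping genes may thus enter the Sox1 and Tubb3 calls and the neural sums at every time. The low sums of other lists differed at 240 h as well, with mesoderm markers at 1.89 to 2.24 in kd against 1.22 to 1.51 in ctrl (Hand1, which both lists hold, higher and Eomes lower) and fibroblast markers at 1.38 to 1.58 against 0.862 to 0.979 (Col1a1 and Col1a2 higher). Col1a2, like Hand1, entered the 240 h test through the kd libraries. At the earlier times Eomes was called lower at 48 h, Tbx6 higher at 72 h, and Col1a1 higher and Thy1 lower at both. Primitive endoderm markers summed to 0.638 to 0.728 in 240 h kd against 0.788 to 0.861, with Gata6, Pdgfra and Dab2 called higher and Sox7 lower. Early, their sum lay below the 48 h ctrl range of 0.596 to 0.636, at 0.252 to 0.327 for 48 h kd and 0.175 to 0.244 for 72 h kd, with Sox7 called lower at both times. Of the 8 pluripotency markers, Klf4, Esrrb and Zfp42 were called lower at 240 h, where the list summed to 1428 to 1480 in kd and 1408 to 1542 in ctrl. Klf4 was also called lower at 48 h and 72 h, and the pluripotency sum, 1536 to 1648 for 48 h ctrl, was 1592 to 1847 for 48 h kd and 2322 to 2416 for 72 h kd (Dppa5a called higher). The part of these cell types in the Bmp4, Smad6 and Id results was not tested.

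Between 48 h and 72 h of knockdown, compared directly without a control, 5 of the 8 genes were called, against 11.5% of 16104 genes (6.36% higher and 5.1% lower, a majority that again turns with median centring). Id1 and Id2 fell between these times, by 1.02 ± 0.06 and 0.74 ± 0.05 on the log2 scale (limma adjusted p = 0.000338 and 0.000464), and their libraries did not overlap. Id4 rose by 0.73 ± 0.11 (limma adjusted p = 0.00406), Smad6 by 0.59 ± 0.11 (limma adjusted p = 0.00782) and Id3 by 0.59 ± 0.09 (limma adjusted p = 0.00418). The Smad6 and Id3 values lay barely over the 0.58 threshold. The Smad6 call was lost without 48 h kd replicate 1 (0.55), 72 h kd replicate 2 (0.52) or 72 h kd replicate 3 (0.57), and the Id3 call without 48 h kd replicate 2 (0.49) or 72 h kd replicate 2 (0.57). Centring on the median gene left both at 0.54 and not called.

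Over the 240 h of culture without doxycycline, the 8 genes stayed near their 48 h level. Log2 differences between 240 h ctrl and 48 h ctrl ran from -0.21 for Bmp8b to 0.13 for Id2, with limma adjusted p between 0.214 and 0.911. For Id3 the 95% interval was -0.25 to 0.09, for Id4 -0.27 to 0.36 and for Smad6 -0.24 to 0.32.

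The wider pathway was described with 7 lists of 84 genes. Leaving out the 8 members, 76 genes remained, of which 44, 44 and 49 had enough reads to be tested at 48 h, 72 h and 240 h. At 48 h 6 of 44 passed the thresholds, 3 upward and 3 downward. At 72 h it was 11 of 44, 6 upward and 5 downward, and at 240 h 12 of 49, 4 upward and 8 downward. As shares these are 13.6%, 25.0% and 24.5%, beside 7.89%, 20.2% and 15.6% over all genes. Their median log2 fold changes were -0.04, 0.05 and 0.05, beside 0.01 at each time over all genes tested. Without 48 h kd replicate 3 the 48 h count was 3, and with 1 FPKM added the 3 counts were 2, 0 and 1.

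**Figure D5:**
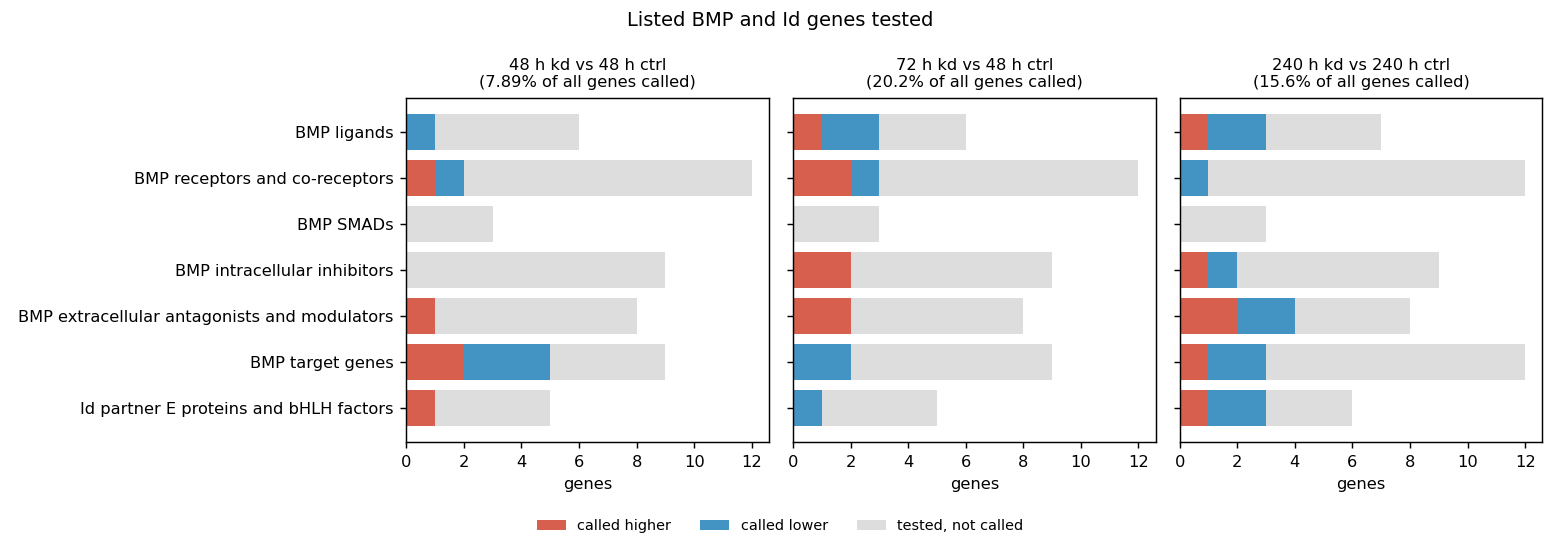
Number of tested genes in each of 7 lists that were called higher, called lower or not called in each knockdown comparison (members included). BMP SMADs had 0 of 3 tested genes called in all 3 comparisons, and BMP target genes, 4 of which are the Id genes, had 5 of 9, 2 of 9 and 3 of 12 called at 48 h, 72 h and 240 h, where 7.89%, 20.2% and 15.6% of all genes were called.

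Among ligands, 6, 6 and 7 of 15 were tested. Bmp6 was called lower at all 3 times, with log2 fold changes of -0.69 ± 0.15, -0.68 ± 0.11 and -0.81 ± 0.08 (SE; limma adjusted p = 0.0236, 0.00206 and 0.000595). Its 22 to 71 reads per library overlap the far more abundant Txndc5, and the 48 h call held in only 2 of the 6 fits that left out a library (lost without any 48 h ctrl library or without 48 h kd replicate 3, values -0.72 to -0.53). Against 240 h ctrl the 72 h value of Bmp6 was -0.44 and not called. Its 240 h value was -1.24 with limma voom on the recovered reads, since the added 0.01 FPKM shrinks low genes. Bmp7, a ligand of kidney and eye development, rose at 72 h from 58 to 74 reads in 48 h ctrl to 139 to 154 (log2 fold change 0.95 ± 0.08; limma adjusted p = 0.000183) and was not called at 48 h (-0.35) or 240 h (-0.33). Gdf7 was called higher at 240 h (0.86), on 13 to 15 reads per library against 6 to 8. Its control reads lay under the minimum of 10, so it was tested only because of the kd libraries where it was high. The list median was -0.32, -0.04 and 0.05 at 48 h, 72 h and 240 h, beside 0.01, 0.01 and 0.01 over all genes tested.

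All 12 of 12 receptors and co-receptors were tested, and 2, 3 and 1 were called at 48 h, 72 h and 240 h (16.7%, 25.0% and 8.33%, beside 7.89%, 20.2% and 15.6% over all genes). Rgma, a membrane-anchored BMP co-receptor, was called higher at 48 h (log2 fold change 0.83 ± 0.11 SE; limma adjusted p = 0.00382) and 72 h (0.72 ± 0.11; limma adjusted p = 0.00155) but lay at 0.07 at 240 h. Against 240 h ctrl its 72 h value was 0.56 and not called. Tgfbr3, the co-receptor betaglycan, was called lower at 48 h (-0.59) and 72 h (-0.67), with 5 to 13 and 6 to 8 reads against 19 to 33 in 48 h ctrl. The added 0.01 FPKM is close to the level of Tgfbr3 itself, and its means were 2.81-fold and 3.58-fold lower (-1.54 and -1.79 with limma voom on the recovered reads). Its 48 h call held in only 1 of the 6 fits that left out a library (the one without 48 h kd replicate 1), the others giving -0.64 to -0.51, and both calls were lost with quantile normalization (-0.53 and -0.54). Eng, the endothelial co-receptor endoglin, was called higher at 72 h (0.94 ± 0.06; limma adjusted p = 7.67e-05), although it overlaps the more abundant Fpgs. Acvrl1, an endothelial type I receptor, was called lower at 240 h (-1.49 ± 0.20; limma adjusted p = 0.00175) on 10 to 14 reads against 27 to 43.

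The signal-carrying SMADs were not called at any time. Of the 3 tested of Smad1, Smad5, Smad9 and Smad4, limma called 0 in each knockdown comparison, limma voom on the recovered reads likewise called 0, and 0, 2 and 0 had an unadjusted p under 0.05 at 48 h, 72 h and 240 h. Their log2 fold changes ran from -0.19 to 0.21, and Smad9 had too few reads to be tested. Among 9 of 9 tested intracellular inhibitors, Smurf1, a ubiquitin ligase that removes BMP SMADs, was called higher at 72 h (0.78 ± 0.06; limma adjusted p = 0.000116). Tob1, a repressor of BMP SMAD activity, was called lower at 240 h (-0.69 ± 0.05; limma adjusted p = 0.000114). Besides these only Smad6 was called, at 72 h and 240 h.

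Of 17 extracellular antagonists and modulators, 8 were tested in each comparison. Bmp1, a protease that cleaves the BMP antagonist chordin and procollagens, rose at all 3 times, with 99 to 106 reads at 48 h kd and 141 to 170 at 72 h kd (50 to 88 in 48 h ctrl), and with 189 to 206 at 240 h kd (65 to 81 in its control). Its log2 fold changes were 0.71 ± 0.14, 1.12 ± 0.13 and 1.28 ± 0.12 (SE; limma adjusted p = 0.0151, 0.000664 and 0.000372). The 48 h call was lost without 48 h ctrl replicate 3 or 48 h kd replicate 3 (both 0.69). At 240 h Fstl3, a follistatin-like binder of activins and BMPs, was called higher (1.60 ± 0.25; limma adjusted p = 0.00348) on 24 to 44 reads against 8 to 12. Tll1, a protease related to Bmp1, was called lower (-0.65), a 2.72-fold lower mean that the added 0.01 FPKM shrinks on the log2 scale (-1.41 with limma voom). At 48 h Tll1 lay at 0.53 and was not called, but was called higher with limma voom (0.86), TPM (0.77) or quantile normalization (0.61). Also called lower at 240 h was Fst, follistatin (-0.75), whose call held in only 1 of 6 fits that left out a library (lost in all but the one without 240 h kd replicate 3, values -0.84 to -0.55). Both Fst and Fstl3 had uneven levels in the controls, not called as different, Fst at 0.344 FPKM in 240 h ctrl and 0.196 in 48 h ctrl (0.202 in 240 h kd) and Fstl3 at 0.154 and 0.282 FPKM (0.494 in 240 h kd). Dand5, an antagonist of the DAN family, was called higher at 72 h (0.75), and its span overlaps the far more abundant Gadd45gip1.

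Of the target genes other than the Id genes, 1 of 5, 2 of 5 and 1 of 8 tested were called at 48 h, 72 h and 240 h, all of them lower. Over all genes the shares were 7.89%, 20.2% and 15.6%, so at 240 h the 1 of 8 targets (12.5%) was close to the background. Gata2, a haematopoietic transcription factor, fell at 72 h from 41 to 53 reads in 48 h ctrl to 11 to 14 (log2 fold change -1.98 ± 0.14 SE; limma adjusted p = 7.81e-05) and lay at 0.17 at 48 h and -0.16 at 240 h. Tbx20, a cardiac T-box factor, was called lower at 72 h (-0.66) and 240 h (-1.03 ± 0.17; limma adjusted p = 0.00433), and the 72 h call was lost without 48 h ctrl replicate 2 or 72 h kd replicate 1 (-0.57 and -0.56). Dusp9, a MAP kinase phosphatase known as a BMP target in mESC and described here after its values were seen, was 22.9, 22.6 and 24.0 FPKM in 48 h ctrl and 13.7, 10.4 and 13.7 FPKM in 48 h kd. At 72 h kd it was 16.9, 17.2 and 17.3 FPKM, and at 240 h 21.7, 23.4 and 25.8 FPKM in ctrl against 27.0, 28.2 and 28.1 FPKM in kd. It fell at 48 h by 0.89 ± 0.11 on the log2 scale (limma adjusted p = 0.00339), and its 240 h effect exceeded its 48 h effect by 1.13 ± 0.14 (limma adjusted p = 0.000337) while the 240 h log2 fold change itself was 0.24.

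Of the E proteins and bHLH factors that Id proteins bind or oppose, 5, 5 and 6 of 13 were tested. Neurod1, a neuronal bHLH factor, was called higher at 48 h (0.89 ± 0.10 SE; limma adjusted p = 0.00217) and 240 h (0.72 ± 0.07; limma adjusted p = 0.000547) but shares bases with Cerkl. Tal1, a haematopoietic bHLH factor, was called lower at 72 h (-1.40 ± 0.21; limma adjusted p = 0.00179) and 240 h (-0.82 ± 0.10; limma adjusted p = 0.00137), with 17 to 30 reads at 72 h kd against 55 to 61 in 48 h ctrl. Tcf4, an E protein, was called lower at 240 h (-0.68).

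Each gene's pattern over the 15 libraries was set beside those of well-counted protein-coding genes that do not overlap it, by Pearson r of log2(FPKM + 0.01), as a description with no test. Id3 was most like Krt8 (r = 0.978), S100a6 (0.9752) and Pmm2 (0.965), and Smad6 most like Greb1l (0.984), Serpina3m (0.982) and B4galt1 (0.976). Bmp4 was most like Acsl3 (0.986), Emp1 (0.982) and Dpysl3 (0.982). Id1 was nearest to Atf1 (0.972), Id2 to Chrna9 (0.981) and Id4 to Smtnl2 (0.964), while the highest r for Bmp8b and Bmpr1a were 0.925 with Dctpp1 and 0.931 with Skil. Among the members themselves, Smad6 and Id3 had r = 0.824, Id1 and Id2 0.782, Id2 and Id4 -0.737 and Id1 and Id3 0.209. The points share the 5 groups and the library totals, so these values restate the group differences above.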

How the data were processed

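RNA-seq of 15 libraries of the mESC line 81K1 was analysed (5 groups of 3, grouped by the sample titles). Per the labels and the study's methods, the authors aligned single reads to mm10 (GRCm38.p6) with STAR 2.7.0c and counted reads per gene in R. The deposited FPKM values cover 55228 genes, with no strand in the files, and the annotation used to count the RNA-seq reads is not given in the sources used here (for its ChIP-seq peaks the study names a later GENCODE release than the one used below). FPKM times gene span times a library total gave whole reads (within 0.001) for 100% of values in every library, with totals of 11074998 to 14515300. Reads summed over genes exceeded the totals by 7.38% to 8.34%, as they would where overlapping genes count the same read. FPKM is divided by the whole gene span, introns included, which lowers it for genes with long introns.

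Log2(FPKM + 0.01) values were tested with limma 3.58.1 (moderated, prior variance with trend, two-sided) in R 4.3.3, for genes with a mean of at least 10 recovered reads in the libraries compared, with Benjamini-Hochberg adjustment over all genes tested. Genes were called at adjusted p under 0.05 and absolute log2 fold change over 0.58, the thresholds of the study. On simulated data with 2-fold changes, 84.2%, 84.6% and 86.7% of changed genes were called at 48 h, 72 h and 240 h (16042, 16191 and 16420 genes tested), with 4, 7 and 4 false calls. The simulated reads were drawn independently with 1 fixed dispersion and no outlying library, unlike 48 h kd and 240 h ctrl. These figures are thus not error rates of the data themselves. The members, pathway lists and marker lists were chosen with earlier results of these data known. Besides the 8 members and Smarcb1, the text names list genes called in at least 2 of the 3 knockdown comparisons and the called gene of largest absolute log2(FPKM + 0.01) fold change per list and comparison, a scale that shrinks genes near 0.01 FPKM; other called list genes (Gdf7, Smurf1, Tob1, Fst, Dand5, Tll1, Dusp9, Tcf4), and the genes overlapping members, were named after their values were seen. Gene types, exons and strands came from GENCODE M21, whose symbols matched 96.5% of listed genes, and promoter windows from RefSeq. Alternatives were another pseudocount, read or FPKM minimum, limma voom on recovered reads, median centring, TPM, quantile normalization, 1 fit of all libraries, a replicate block, no fold threshold, 240 h ctrl as the 72 h control, and leaving out each library. Replicate pairs of a group differed beyond counting noise (chi-square per degree of freedom 1.30 to 11.3), so no library was counted as a repeat of another.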

Additional observations from a re-analysis of the deposited data

Results flagged for a closer look

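Each of these results was singled out because the knockdown effect at 240 h differed from that at 48 h in a limma test of the difference itself (adjusted p under 0.05). Values are the 240 h log2 fold change minus the 48 h log2 fold change with its SE. Among the members, Id3 gave 2.29 ± 0.13 (limma adjusted p = 2.02e-06), lower at 48 h and higher at 240 h. Smad6 gave 1.40 ± 0.16 (limma adjusted p = 0.000214), with no call at 48 h. Id2 gave -0.52 ± 0.11 and Bmp4 -0.34 ± 0.09 (limma adjusted p = 0.00774 and 0.0304), both below the fold threshold.

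Among other genes of the pathway, the difference was called higher for Fstl3 (1.62 ± 0.37; limma adjusted p = 0.0127), Dusp9 (1.13 ± 0.14; limma adjusted p = 0.000337) and Tgfbr3 (0.80 ± 0.21; limma adjusted p = 0.0238). It was called lower for Tll1 (-1.17 ± 0.13; limma adjusted p = 0.000152), Tal1 (-0.87 ± 0.20; limma adjusted p = 0.0131) and Rgma (-0.76 ± 0.16; limma adjusted p = 0.00712), and for Tob1 (-0.64 ± 0.09; limma adjusted p = 0.0011) and Tcf4 (-0.62 ± 0.11; limma adjusted p = 0.00352). Fstl3 had a log2 difference of -0.84 between 240 h ctrl and 48 h ctrl (not called), and the difference of effects includes that. Tgfbr3 and Tll1 lie near the added 0.01 FPKM, which shrinks these values, and limma voom on the recovered reads gave 1.91 and -2.27. The Tgfbr3 call was lost with quantile normalization (0.63). It held in 8 of 12 fits that left out a library and was lost without 48 h ctrl replicate 1, 48 h kd replicate 2, 48 h kd replicate 3 or 240 h ctrl replicate 1 (0.71, 0.75, 0.73 and 0.74). The Tcf4 call was lost without 240 h kd replicate 2 (-0.58).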

How the results depend on the processing

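Of 910 single values of the 8 members under an alternative, 875 kept their side of the threshold, 23 lost a call, 12 gained one, and 0 called values changed sign (18 values changed sign without being called in either fit). Of the 8 members, 2 rather than 4 were called at 48 h with 1 FPKM added, 3 with a minimum of 50 reads, and 5 with TPM or without the fold threshold. At 240 h, 3 rather than 4 were called with 1 FPKM added, a minimum of 50 reads or a minimum of 0.5 FPKM (run together with 0.1 FPKM added), and 6 without the fold threshold. At 72 h, 1 rather than 2 was called with 0.1 FPKM added, with 1 FPKM added, or with a minimum of 0.5 FPKM, and 4 without the fold threshold. For 72 h kd against 48 h kd, 3 rather than 5 were called with 0.1 FPKM added, a minimum of 0.5 FPKM, median centring or quantile normalization, 2 with 1 FPKM added, 4 with a minimum of 50 reads (without Id4) or with no minimum (without Smad6), and 6 without the fold threshold. For the difference of effects, 1 rather than 2 was called with 1 FPKM added or a minimum of 0.5 FPKM, and 4 without the fold threshold. Leaving out 1 library gave 3 to 5 calls at 48 h, 2 at 72 h, 4 at 240 h, 0 between controls, 3 to 5 for 72 h kd against 48 h kd (3 without 72 h kd replicate 2) and 2 to 3 for the difference of effects. The cause of these changes was not tested, except that a larger added value shrinks the log2 change of low genes, that Smad6 lies below the minimum of 0.5 FPKM and was then not tested, and that Id4 lies below the minimum of 50 reads in every comparison but 72 h kd and 240 h ctrl against 48 h ctrl and was not tested there.

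Same-numbered replicates did not deviate together in all pairs of any comparison (r from -0.39 to 0.38), so numbers were not taken to pair libraries. With a replicate block the members called were 4, 2, 4, 0, 5 and 2 in the order 48 h, 72 h, 240 h, controls, 72 h kd against 48 h kd and difference of effects, as without it.

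Counts over all genes moved more. Over the alternatives that kept every library, 188 to 3263 genes were called at 48 h, 684 to 9176 at 72 h, 520 to 6432 at 240 h, 0 to 444 between controls, 306 to 5920 for 72 h kd against 48 h kd and 343 to 2966 for the difference of effects. The fewest came with 1 FPKM added or, between controls, with the replicate block, and the most without the fold threshold. Between controls, 101 genes were called and 0 to 2 when any library was left out. Of these calls 72.3% were higher, against 88.9% with TPM, which moved the median of all genes there by 0.11, and 59.5% with limma voom. Of the calls 56.2% were higher at 72 h and 55.5% for 72 h kd against 48 h kd, but 46.7% and 46.5% with median centring. At 240 h the higher share was 53.7%, but 49.6% with quantile normalization. For the difference of effects it was 53.2%, but 47.2% with a minimum of 50 reads and 46.7% with a minimum of 0.5 FPKM. The other list genes called numbered 2 to 13, 0 to 28 and 1 to 20 at the 3 times. With no read minimum, calls were lost for Bmp6 at all 3 times, Rgma at 48 h and 72 h, Tgfbr3 and Bmp1 at 48 h, Tbx20 at 72 h and 240 h, Fst and Tll1 at 240 h, and Rgma, Tgfbr3 and Tcf4 for the difference of effects. With the replicate block the 48 h calls of Bmp6 and Bmp1 were lost, and with quantile normalization the 72 h call of Tbx20 (-0.56). With 0.1 FPKM added, 20 of 118 single values of list genes other than the members lost a call, and with 1 FPKM added 37 did. Among the genes with few reads were Id4, Gdf7, Tgfbr3, Fstl3, Tbx20 and Fst, and the effect of depth on them was not tested.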
